A study of Rattus norvegicus with 12 samples.

Results

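The 3' untranslated regions (3' UTRs) described here are those of 382 genes whose 3' UTR length, as the authors gave it for control and for picrotoxin-treated rat hippocampal cultures, differed by 500 bases or more between the arms. Lengths above 0 in both arms were given for 9294 gene names, and the 382 made up 4.11% of them. With picrotoxin the 3' UTR was longer in 154 genes (1.66%) and shorter in 228 (2.45%). Where a name had several entries, the median length of each arm was taken. The genes were chosen by these measured lengths, which stand once per arm, with the libraries pooled, so every length and every length difference is a description with no test.

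The cultures were primary hippocampal cells enriched for neurons, prepared from Sprague-Dawley rats at embryonic day 18. Both arms had the same source and age: vehicle (control) or picrotoxin was added at 18 days in vitro for 48 h, and RNA was taken at 20 days in vitro. Each arm had 3 biological replicates, numbered 3, 10 and 20 in the labels, which do not say what a number marks or whether embryos were pooled. PolyA RNA and small RNA were sequenced from the same preparations, which gave 12 libraries in 4 groups of 3. Picrotoxin closes the pore of the GABA-A receptor, which carries chloride, so inhibition falls and network activity rises, and neurons that are kept overactive scale their excitatory synapses down.

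A 3' UTR lies between the stop codon and the poly(A) tail. Its end is set when the nascent transcript is cut and polyadenylated, and many neuronal genes have several such poly(A) sites, so 1 gene can make a short and a long 3' UTR from the same coding sequence. Longer 3' UTRs hold more sites for microRNAs and RNA-binding proteins, which act on the stability, the translation and the transport of the mRNA into dendrites.

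One member, Mir138-1, carries the name of a microRNA hairpin, and the mature microRNAs of that hairpin are shown because the small RNA libraries measured them. The sequences are RefSeq's (GRCr8, plus strand), 5′ to 3′, and the capitals mark the seed, bases 2 to 8.
rno-miR-138-5p: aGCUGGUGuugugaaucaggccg
rno-miR-138-1-3p: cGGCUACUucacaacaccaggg
The first lies at chr8:131178456-131178478 and is made from 2 hairpins in that table; the second lies at chr8:131178494-131178515 and is made from Mir138-1 alone. Mir138-1 was listed with 2310 bases in control cultures and 1270 with picrotoxin, and at an FPKM of 0 in both arms. The authors' locus spans 130886767 to 130886866 on chromosome 8, and the 5' length with picrotoxin was also 1270. A hairpin has no stop codon, so these lengths are not those of a 3' UTR as defined above. Counts scaled to a common microRNA total (CPM) of miR-138-5p were 2702, 2813 and 2488 in control libraries 3, 10 and 20, and 2089, 2297 and 2219 in picrotoxin libraries 3, 10 and 20. For miR-138-1-3p the CPM were 31.1, 20.8 and 20.5 in the control libraries and 16.4, 19.8 and 16.4 with picrotoxin. Both microRNAs were below every control value in all picrotoxin libraries, and no test was made of them. Of 442 microRNAs with a mean CPM of 1 or more, 9.73% had picrotoxin values below all control values.

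Most 3' UTRs were measured at nearly the same length in both arms. Of the 9294 gene names, 3407 had equal lengths, 2733 were longer and 3154 shorter with picrotoxin by any amount, and 84.1% differed by under 50 bases. The 382 genes thus form the far tail. In the 154 longer genes the median length was 201.5 bases in control cultures and 1639 with picrotoxin, and the median difference was 1131. In the 228 shorter genes the medians were 2199 and 249 bases, and the median difference was 1542.5. For the 8912 genes that differed by less than 500 bases the median lengths were 703 and 702.5.

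**Figure D1:**
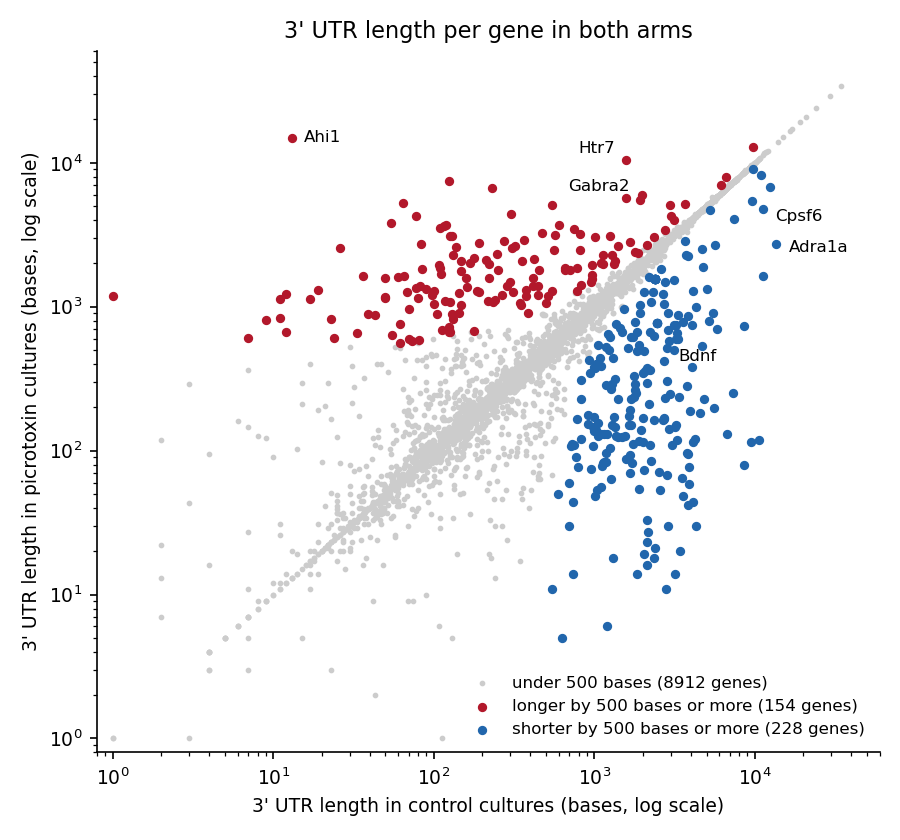
3' UTR length of each gene name in control cultures (x axis, bases, log scale) and picrotoxin cultures (y axis, bases, log scale), with the 154 longer genes in red, the 228 shorter genes in blue and the 8912 others in grey. The coloured points reach down to lengths of a few bases in 1 arm, while most grey points lie on the diagonal.

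The arm with the shorter 3' UTR held 200 bases or less in 77 of the 154 longer genes (50%) and in 105 of the 228 shorter genes (46.1%), against 21.6% of the other genes. The longer arm had at least 5 times the length of the shorter arm in 95 longer and 139 shorter genes. A difference of 2000 bases or more was found in 36 longer and 83 shorter genes. A gene under 500 bases in control cultures cannot be shorter by 500, and 2.9% of such genes were longer. Of those with 2000 bases or more but under 5000, 0.436% were longer and 6.79% shorter. Many differences were whole multiples of 20 bases, namely 44 in the longer genes (28.6%) and 72 in the shorter genes (31.6%). The share was 38.9% among the 1092 genes that differed by at least 50 but under 500 bases, while 5% of whole numbers are such multiples. The sources used here do not say how the ends were called.

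At the threshold, the genes just inside on the longer side included Cenpi, Gid8 and Nfatc2ip, the first by name of 4 at exactly 500 bases, and the genes just outside were Gstcd (498), Rnls (497) and Serpinb2 (495). On the shorter side Mon2 (500), Rp9 (514) and Nup153 (516) lay inside, and Aff3 (489), Tram1 (480) and Ybey (476) outside.

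The largest gain in length was that of Ahi1, a ciliary protein gene linked to Joubert syndrome, from 13 to 14850 bases. The authors' table places it on chromosome 1 from 18958622 to 19080397; the sources used here do not name the assembly. Its level was nearly the same in both arms: scaled fragments (polyA fragments assigned to the gene, divided by a factor per library) were 4022, 3906 and 4044 in control libraries 3, 10 and 20 and 4030.2, 3718 and 3859 with picrotoxin. The groups overlapped, and the log2 fold change of the level, picrotoxin over control, was -0.05 (SE 0.072, limma adjusted p = 0.816). Htr7, a serotonin receptor gene, came next with 1567 and 10521 bases. In control libraries Htr7 had 489.5, 408 and 532 scaled fragments, and with picrotoxin 544, 539.9 and 724. These groups did not overlap, and the limma adjusted p was 0.266 without and 0.00634 with the replicate number as a block.

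Next came the other 10 of the 12 longer genes with the largest differences and an FPKM of 1 or more in both arms. Signalling genes among them were Gpr137b (124 to 7475 bases), whose product is a lysosomal membrane protein, and Smad4 (1580 to 5649), the shared mediator of TGF-beta signalling. Fstl4, a follistatin-like gene, went from 1988 to 6008 bases, and Gng12, a G protein gamma subunit, from 119 to 3719. Gabra2 encodes an alpha subunit of the GABA-A receptor, the receptor that picrotoxin blocks, and its 3' UTR had 1914 bases in control and 5534 in picrotoxin cultures. Its scaled fragments were 3856, 3811 and 3705 in control and 3935, 3333 and 3831 in picrotoxin libraries, which overlapped (log2 fold change -0.04, SE 0.084, limma adjusted p = 0.868). Pcdh11x, a protocadherin of cell adhesion, had 78 and 4279 bases. Its level was 3250.5, 2439 and 3128 scaled fragments in control and 3964, 2669 and 4538 in picrotoxin libraries, with overlap; each picrotoxin library exceeded the control library of the same number (limma adjusted p = 0.428, 0.00392 with the block). Clpb (230 to 6702), a mitochondrial chaperone, Slco5a1 (64 to 5242), of the organic anion transporter family, Trim67 (303 to 4435), a ubiquitin ligase, and Cpne3 (54 to 3844), a calcium-dependent membrane binder, complete the group. Slco5a1, Trim67 and Cpne3 were weakly expressed, at 1.26, 1.28 and 1.69 FPKM in control cultures. In level, Htr7, Pcdh11x and Slco5a1 passed limma's threshold with the block only (adjusted p = 0.00102 for Slco5a1), and the remaining 9 of these 12 genes in neither fit.

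Among genes at that level, the 12 largest losses of length ranged from 10838 bases in Adra1a down to 4580 in Nedd4l. Adra1a, an adrenergic receptor gene, had 13558 bases in control and 2720 in picrotoxin cultures, at a low level of 2.79 and 2.92 FPKM. Regulators of the cytoskeleton and of membranes were Enah (9519 to 114), an actin regulator, Rab30 (8560 to 80), a small GTPase of the Golgi, and Clmn (8507 to 730), a membrane protein with actin-binding domains. Akap10 (7350 to 252) anchors protein kinase A, and Nedd4l (4808 to 228) is a ubiquitin ligase. The nuclear and RNA-related genes of this group were Taf1d (11246 to 1629) of the RNA polymerase I factor, Crnkl1 (6673 to 131) of the spliceosome, Cpsf6 (11260 to 4789) of the cleavage machinery, Grwd1 (5589 to 197) of ribosome assembly, Hnrnpu (5842 to 698), a nuclear RNA-binding protein, and Zfp192 (12364 to 6761), a zinc finger gene. Hnrnpu was well covered, with 6953, 7139 and 7485 scaled fragments in control and 6680.1, 6502 and 6482 in picrotoxin libraries; the groups did not overlap, yet the change was small (log2 fold change -0.13, SE 0.068, limma adjusted p = 0.362). Enah had 622, 579 and 667 scaled fragments in control and 585, 545 and 719 in picrotoxin libraries, which overlapped, at a log2 fold change of -0.02. In level, Clmn passed limma's threshold in both fits, Taf1d with the block only (adjusted p = 0.0194), and the remaining 10 in neither. Snrpn lost more than all of these but Adra1a (10641 to 118 bases) and was not matched by name in the expression table.

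**Figure D2:**
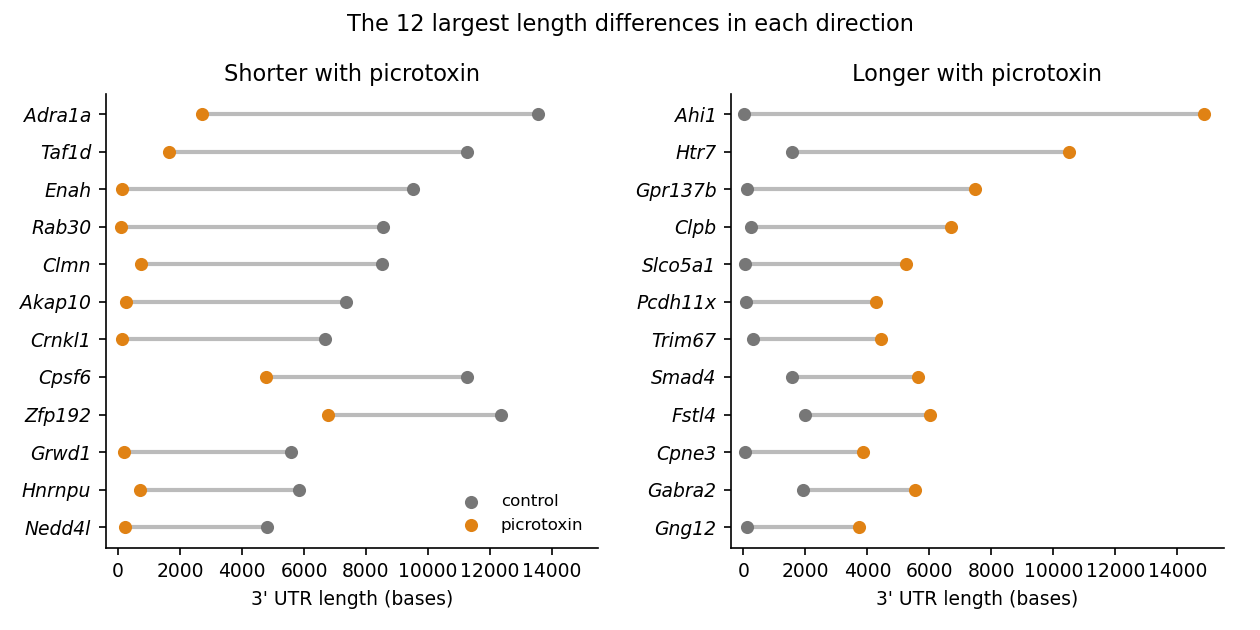
3' UTR length in bases (x axis) in control (grey) and picrotoxin cultures (orange) for the 12 shorter genes (left) and the 12 longer genes (right) with the largest differences among members with an FPKM of 1 or more in both arms; a line joins the 2 values of a gene, which have no error because libraries were pooled. Ahi1 spans 13 to 14850 bases, and most genes have an arm close to 0 on this scale.

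Some entries shared their ends, so the count of genes is larger than the count of separate length changes on the shorter side. A group of 15 names of the clustered protocadherin alpha family, adhesion proteins whose variable exons are spliced to the same constant 3' exons, all had 2400 bases in control and 1560 in picrotoxin cultures. Of these 15, 9 could be tested for level, and their log2 fold changes ran from -0.629 to -0.086. Zfp37, Obp3, LOC259246, LOC298116 and RGD1566134 all had 2466 and 768 bases. The 228 shorter genes held 210 distinct pairs of lengths, and the 154 longer genes 154.

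For genes with several entries the median can hide isoforms. Bdnf, the neurotrophin gene whose many promoters feed 1 coding exon, was listed in 10 entries, each with 2700 bases in control and 420 in picrotoxin cultures (authors' locus on chromosome 3 from 107390647 to 107421863). Plec, a cytoskeletal linker, had 11 entries, each with 1149 and 83 bases. Ntrk2, the receptor of Bdnf, had 1 entry that went from 1856 to 4793 bases and another at 5540 and 5543. Dclk1, a doublecortin-like kinase, likewise had 1 entry at 4494 and 94 bases and another at 4926 in both arms. An entry that changed little was also listed for Cdk12 (450 and 452, beside 450 and 3144) and Tpm3 (1261 and 1248, beside 2419 and 78). Cflar had 1 entry at 82 in both arms and another at 1330 and 3512, so its medians of 706 and 1797 match no entry. These genes and the synaptic genes of the next sentences were chosen after their values were seen. Homer1, a scaffold of the postsynaptic density, had 1397 bases in control and 2622 in picrotoxin cultures, and Htr4, a serotonin receptor, 568 and 3125. On the shorter side stood Marcks, an actin-linked substrate of protein kinase C (2662 to 1222), and Lrrtm3, a synaptic adhesion protein (1921 to 1021).

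In level, Bdnf, Homer1, Ntrk2, Marcks, Htr4, Dclk1 and Lrrtm3 did not pass limma's threshold without the block. Bdnf had 6147, 4729.7 and 5229 scaled fragments in control libraries 3, 10 and 20 and 7555, 7413 and 6715 in picrotoxin libraries 3, 10 and 20, so that every picrotoxin value was above every control value. Its log2 fold change was 0.44 (SE 0.10, n = 3 per arm), with a limma adjusted p of 0.0515 and 0.000179 with the block; without picrotoxin library 20 the adjusted p was 0.0132, without control library 3 it was 0.0394, and over all alternatives it ran from 0.000179 to 0.242. Homer1 had 2484, 2439 and 2672 scaled fragments in control and 2206, 2001 and 2235 in picrotoxin libraries. All picrotoxin values were below the control values (log2 fold change -0.24, SE 0.082, limma adjusted p = 0.159, 0.00985 with the block). Ntrk2, Marcks, Htr4, Dclk1 and Lrrtm3 overlapped between the arms, with limma adjusted p from 0.318 to 0.706; with the block limma called Dclk1 (adjusted p = 0.0411) and Lrrtm3 (adjusted p = 0.0279).

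The level of a gene was tested across all 12046 genes with an FPKM (fragments scaled by transcript length and sequencing depth, given by the authors per arm) of 1 or more in at least 1 arm. An adjusted p under 0.05 was taken as a call. Of all tested genes 1.67% were called higher and 1.62% lower with picrotoxin (3.29% in all). By name 147 of the longer and 214 of the shorter genes were found in the expression table, and 143 and 207 of these passed the FPKM filter. Among the longer genes 4 (2.8%) were called higher and 1 lower (0.699%). Among the shorter genes 0 were called higher and 8 lower (3.86%). By the authors' q-value under 0.05, 13 longer genes had a higher and 2 a lower FPKM with picrotoxin. By that measure 3 shorter genes, Bdnf and Cstf2 among them, were higher and 15 lower. Of the 8688 other genes found by name, 302 were higher and 335 lower by it. Lengths and levels come from the same libraries and the same contrast, so nothing is read from these counts. At an unadjusted limma p under 0.05, 7 shorter genes were higher and 27 lower, and 23 longer genes were higher and 6 lower; over all tested genes those shares were 8.76% and 8.87%.

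With the replicate number as a block, limma called 24 longer genes higher and 7 lower, and 12 shorter genes higher and 33 lower, against 9.65% of all tested genes higher and 10.4% lower (20.0% in all). The 3 picrotoxin values lay above the 3 control values in 28 longer genes (19.6%) and 9 shorter genes (4.35%), against 11.6% of all tested genes. They lay below the control values in 10 longer (6.99%) and 33 shorter genes (15.9%), against 11.8%. The median log2 fold change was 0.0304 over the tested longer genes, -0.0573 over the shorter genes and -0.00704 over all tested genes. The longer genes' median lay near 0 and changed sign with the setting: it was -0.0386 at an FPKM of 5 or more, 0.00129 without picrotoxin library 20 and -0.0045 without both libraries of number 20.

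Without the block, the members called higher were all longer genes of low level, between 1 and 5 FPKM in each arm. With the block 12 shorter genes were called higher as well, and they included Bdnf at a control FPKM of 108. Mapkapk3, a kinase acting below stress-activated MAP kinases, went from 80 to 1140 bases, and its level was 44.8, 31.5 and 50.9 scaled fragments in control and 134, 100.2 and 151 in picrotoxin libraries. Every picrotoxin value was far above the control values, and the level rose 3.00-fold (log2 fold change 1.58, SE 0.23, limma adjusted p = 0.00886). Gabre, the epsilon subunit of the GABA-A receptor, went from 162 to 1376 bases. Gabre had 52.6, 49.4 and 48.7 scaled fragments in control and 92.3, 89.8 and 101 in picrotoxin libraries, a rise with narrow spread in both arms (log2 fold change 0.90, SE 0.16, limma adjusted p = 0.019).

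Cgnl1, a protein of cell junctions, went from 83 to 2714 bases while its scaled fragments rose from 80.8, 70.1 and 65.7 to 117, 129 and 129.7 (log2 fold change 0.79, SE 0.15, limma adjusted p = 0.0255). Kcnab3, an auxiliary subunit of potassium channels, had 70 and 970 bases. Kcnab3 rose from 35.0, 28.8 and 41.3 to 71.9, 57.4 and 81.6 scaled fragments (log2 fold change 0.98, SE 0.22, limma adjusted p = 0.0398). In all 4 genes the arms did not overlap. Stc2, Relt and Maff, named after their values were seen, had a longer 3' UTR and non-overlapping higher levels as well, with log2 fold changes of 1.37, 0.95 and 1.03, but their limma adjusted p were 0.0512, 0.0546 and 0.06 (0.000407, 0.00101 and 0.000119 with the block). Their 3' lengths in control cultures, 211, 190 and 50 bases, were identical to their 5' lengths in that arm.

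Slc1a6, a glutamate transporter, was the longer gene called lower without the block. Its 3' UTR had 39 and 888 bases, and its scaled fragments were 177, 96.2 and 148 in control and 58.3, 48.0 and 50.2 in picrotoxin libraries. The control values were widely spread, yet the lowest was well above the highest picrotoxin value (log2 fold change -1.37, SE 0.23, limma adjusted p = 0.0154). Kctd1 and Psd, also chosen after their values were seen, gained 600 and 580 bases and had lower, non-overlapping levels. Their log2 fold changes were -0.57 and -0.33, with limma adjusted p of 0.0674 and 0.159 (0.00168 and 0.000894 with the block).

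The 8 genes with a shorter 3' UTR that were called without the block all fell in level. Nr3c2, the mineralocorticoid receptor, which hippocampal neurons express strongly, had 3690 and 2839 bases. In control libraries it had 906, 964 and 984 scaled fragments and in picrotoxin libraries 515, 577 and 526, with little spread in either arm (log2 fold change -0.82, SE 0.092, limma adjusted p = 0.0045). Slc8a2, a sodium-calcium exchanger of the neuronal membrane, had 4140 and 1295 bases. Its level fell from 2446, 2729.8 and 2769 to 1591, 1676 and 1242 scaled fragments (log2 fold change -0.83, SE 0.12, limma adjusted p = 0.00886); picrotoxin library 20 was the lowest of all. Ppp1r7, a regulatory subunit of protein phosphatase 1, had 2134 and 374 bases, and it fell from 1493, 1615 and 1582 to 1182, 1181 and 1071 scaled fragments (log2 fold change -0.45, SE 0.085, limma adjusted p = 0.0225). March1, a membrane-bound ubiquitin ligase that ranked just outside the genes fixed for naming, had 547 and 11 bases and a log2 fold change of -0.57 (SE 0.12, limma adjusted p = 0.0385).

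The other 4 were expressed at 1 to 5 FPKM. Spata13 went from 3515 to 65 bases, and its scaled fragments went from 119.7, 129 and 161 to 62.2, 60.6 and 53.3 (log2 fold change -1.19, SE 0.17, limma adjusted p = 0.00886). Chrna5, a subunit of nicotinic acetylcholine receptors, went from 4129 to 44 bases and from 130.4, 109.7 and 88.0 to 60.3, 41.8 and 32.4 scaled fragments. In both arms library 3 of Chrna5 was the highest and library 20 the lowest (log2 fold change -1.29, SE 0.25, limma adjusted p = 0.0237). Cntnap5c, of the contactin-associated family, had 2534 and 71 bases and a log2 fold change of -0.72 (SE 0.13, limma adjusted p = 0.0207), and Clmn one of -0.73 (SE 0.16, limma adjusted p = 0.0429). All 13 calls held with the block. Only Nr3c2 kept its call whichever single library was left out: without control library 10 the calls of 11 of the 13 genes were lost, with adjusted p up to 0.206. Without picrotoxin library 10, 9 were lost; without control library 3, control library 20 or picrotoxin library 3, 7 each; without picrotoxin library 20, 0.

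**Figure D3:**
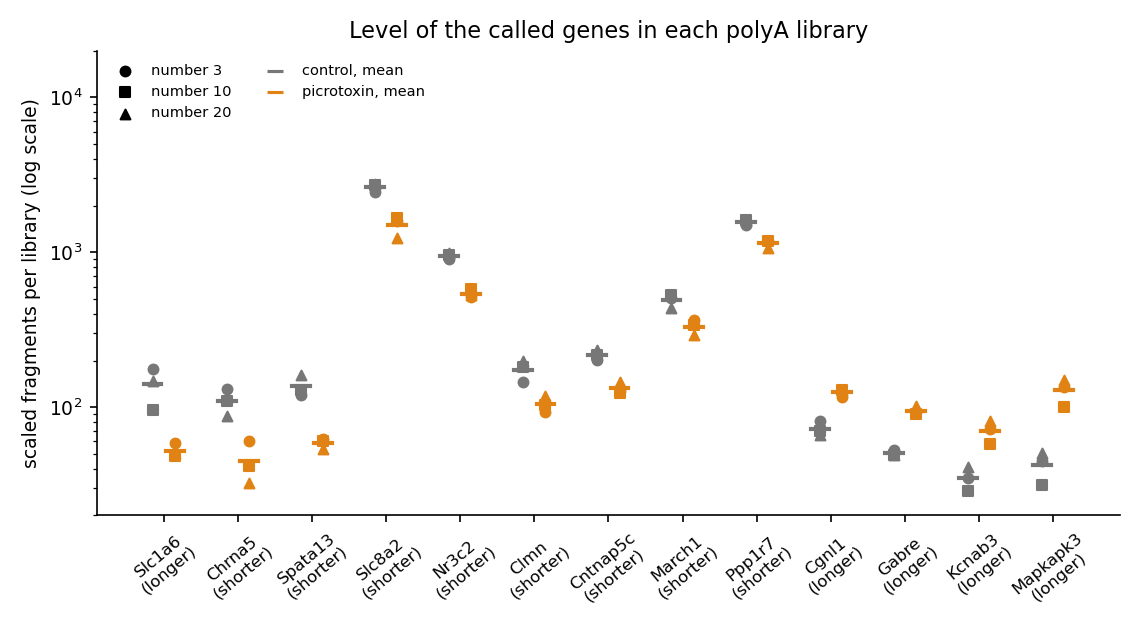
Scaled fragments per polyA library (y axis, log scale) for the 13 genes called without the block, with control in grey and picrotoxin in orange. The marker shape gives the replicate number and the bar the mean of 3 libraries. The arms do not overlap in any of the 13 genes, and the name of each gene is followed by the direction of its length difference.

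Members were more frequent among weakly expressed genes. Of genes with lengths whose mean FPKM over the arms was under 3, 17.1% were members (39 longer and 47 shorter of 504). The share was 5.47% at 3 to 10 FPKM and 2.48% at 10 or more. The median control FPKM was 7.19 in the longer, 8.58 in the shorter and 21.5 in the other genes. Under 3 FPKM, the direction of level and of length went together: 33 of 39 longer genes (84.6%) had a log2 fold change above 0, with a median of 0.33, and 40 of 47 shorter genes (85.1%) had one below 0, with a median of -0.216. Of the other 418 genes at that level 54.3% were above 0. At 3 to 10 FPKM, 23 of 42 longer genes were above 0 and 38 of 63 shorter genes below 0. The 9 tested protocadherin alpha names, which shared their lengths, were counted singly and all lay below 0, most of them at 3 to 10 FPKM. At 10 FPKM or more it was 23 of 62 and 49 of 97. These counts are a description, since the lengths and the levels came from the same polyA libraries.

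**Figure D4:**
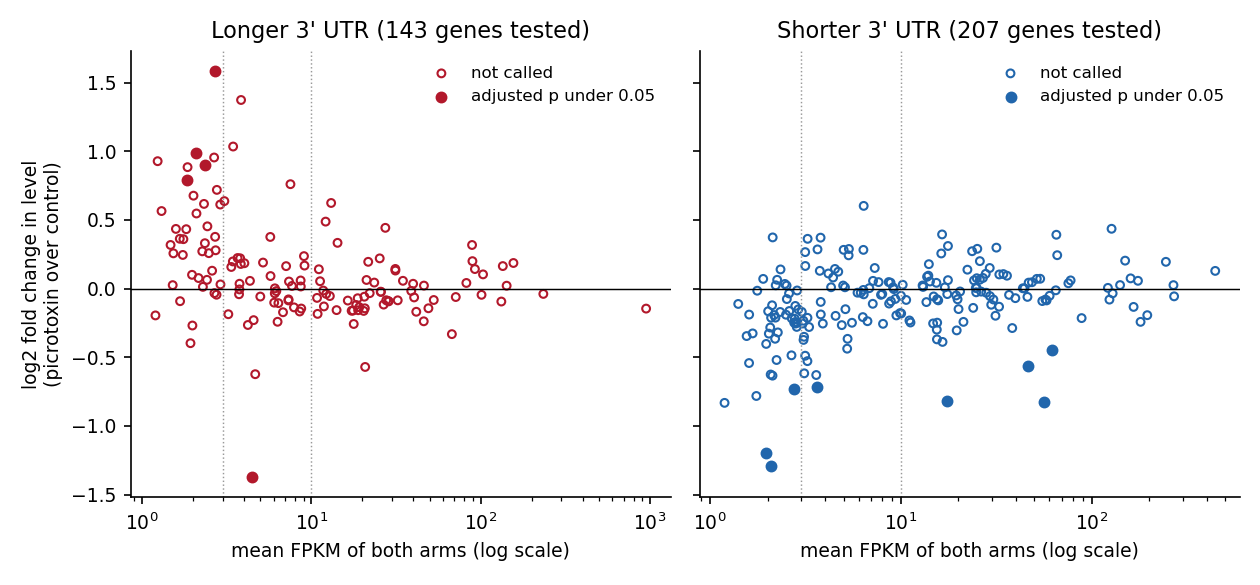
Log2 fold change of the level, picrotoxin over control (y axis), against the mean FPKM of the arms (x axis, log scale) for the 143 longer genes tested (left) and the 207 shorter genes tested (right), with filled points for an adjusted p under 0.05 and dotted lines at 3 and 10 FPKM. Left of the first dotted line 33 of 39 longer genes lie above 0 and 40 of 47 shorter genes below 0.

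The 5' UTR, the part ahead of the start codon, is not used by the rule, and for most members it kept its length. It differed by 50 bases or less in 66.9% of the longer and 70.6% of the shorter genes, against 83.6% of the others. A 5' difference of 500 bases or more was listed for 18 longer genes (11.7%) and 30 shorter genes (13.2%), against 2.89% of the others. Its direction was mostly that of the 3' UTR: 16 of the 18 were longer at both ends, and 25 of the 30 shorter at both. Only 3' lengths had to be above 0, so 5' lengths of 0 were kept, as in Carm1 (0 to 3059), Naaa (0 to 1269) and Bmper (806 to 0). The 5' and 3' lengths were identical in both arms in 1 of the 16, LOC689986 (3118 and 3982 bases). They were so in 4 of the 25, namely Obp3, LOC259246, LOC298116 and RGD1566134, which share 2466 and 768 bases. Many of the genes that changed in the same direction at both ends were weakly expressed. A mean FPKM under 3 was found in 6 of the 15 tested that were longer at both ends, against 27.3% of all tested longer genes. For those shorter at both ends it was 12 of 19, against 22.7% of all tested shorter genes. Clpb went from 1589 to 8309 bases at the 5' end, Trim67 from 413 to 4500 and Kcnab3 from 43 to 1887, while Chrna5 went from 5401 to 44.

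In 8 members the 5' and the 3' difference were the same number of bases (1.3% of the longer and 2.63% of the shorter genes). These include 1 longer gene and 4 shorter genes, the latter with shared ends, whose 5' and 3' lengths were identical in both arms. That held for 35 of the 8912 others. Of the other genes 1.26% had an equal difference that was not 0, and 11.9% when differences of 0 at both ends are counted. Nr3c2, for example, had a 5' length of 1074 in control and 223 in picrotoxin cultures, and Adra1a of 14075 and 3237. The 5' and 3' length of the same arm were identical in 11 longer (7.14%) and 17 shorter genes (7.46%), against 1.01% of the others. Slco5a1 was such a gene, with 64 bases at each end in control cultures, and Chrna5 another, with 44 at each end with picrotoxin.

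Genes for factors that make or read 3' ends were among the members. Cleavage and polyadenylation need the CPSF complex, which reads the poly(A) signal, the CstF complex, which binds downstream of the cut, and cleavage factor I, which favours distal sites. Of 28 genes of this machinery with lengths, 4 were shorter by 500 bases or more and 0 longer, beside 2.45% and 1.66% of all gene names. Among these 4, the subunits of cleavage factor I were Cpsf6 (above) and Nudt21, whose 3' UTR had 3049 and 109 bases. Cpsf7, also of cleavage factor I, had 1955 bases in both arms. Nudt21 had 1043, 1037 and 1078 scaled fragments in control and 1101, 987 and 909 in picrotoxin libraries, which overlapped (limma adjusted p = 0.746). The CstF genes among the 4 were Cstf1 (1751 to 111 bases) and Cstf2 (2565 to 53). Cstf3 had 195 bases in both arms, and Cstf2t had no length above 0 in both arms.

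Cstf2 had 2854, 3046 and 3107 scaled fragments in control libraries 3, 10 and 20 and 3334, 3811 and 4805 in picrotoxin libraries. All picrotoxin values were above the control values, the highest in library 20. The log2 fold change of Cstf2 was 0.39 (SE 0.12), with a limma adjusted p of 0.125 and 0.000776 with the block. Of 31 genes of the machinery tested for level, limma called 0 in either direction (1 higher and 0 lower at an unadjusted p under 0.05), and 1 higher and 2 lower with the block, no more than the shares of all tested genes given above. Their median log2 fold change was -0.0422, beside -0.00704 over all tested genes. Snrnp70, of the U1 particle that keeps internal poly(A) sites from being used, and Pabpc1, which coats the poly(A) tail in the cytoplasm, were the most abundant. Their log2 fold changes were -0.11 and -0.13.

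Proteins that steer the choice of poly(A) site had 1 member among 30 with lengths, Tial1, an RNA-binding protein that went from 1095 to 56 bases. Tial1 overlapped in level between the arms (limma adjusted p = 0.881). Of 31 tested genes of this list 0 were called higher and 1 lower (1.67% and 1.62% of all tested genes), and the median log2 fold change was -0.156, beside -0.00704 over all. The called gene was Hnrnph1, a splicing factor whose 3' UTR had 610 bases in both arms. Hnrnph1 fell from 4229, 4252 and 4445 to 3413, 3234 and 3044 scaled fragments (log2 fold change -0.42, SE 0.076, limma adjusted p = 0.0197). This call held only when picrotoxin library 20 was left out among the 6 omissions of a library; without control library 10 the adjusted p was 0.115, and without control 3, control 20, picrotoxin 3 or picrotoxin 10 it was 0.0658, 0.0725, 0.0505 and 0.0659. At an unadjusted p under 0.05, 0 genes of the list were higher and 8 lower (8.76% and 8.87% of all tested genes), and with the block 0 were called higher and 10 lower (9.65% and 10.4% of all). Both lower counts, out of 31 tested genes, were larger shares than those of all tested genes. Rbfox3 of this list was also 1 of the 7 neuronal markers, of which 4 were lower and 0 higher at an unadjusted limma p under 0.05. The part of that shift in these counts was not tested.

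Among factors that bind 3' UTRs or degrade mRNA, 3 were longer and 1 shorter of 29 with lengths, beside the same 1.66% and 2.45% of all gene names. Argonaute proteins carry the microRNA: Ago2 went from 10899 to 8218 bases and Ago3 from 9783 to 12816. Ago2 had 441, 526 and 512 scaled fragments in control and 486, 599 and 777 in picrotoxin libraries, which overlapped; each picrotoxin library exceeded the control library of its number (log2 fold change 0.31, SE 0.16, limma adjusted p = 0.371, 0.0196 with the block). Upf2, of nonsense-mediated decay, went from 265 to 1214 bases. Stau2, which carries mRNAs into dendrites, went from 310 to 1274 bases in 2 entries and had 1017 in both arms in another. Neither Upf2 nor Stau2 nor Ago3 separated the arms in level. Limma called 0 of 37 tested genes of this list (1 higher and 1 lower at an unadjusted p under 0.05; 2 and 2 with the block), counts that are no larger than the shares of all tested genes given above, and their median log2 fold change was -0.058. Auh, an RNA-binding protein of AU-rich elements and among the most abundant here, had a log2 fold change of 0.35 (limma adjusted p = 0.0542, 0.000461 with the block).

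**Figure D5:**
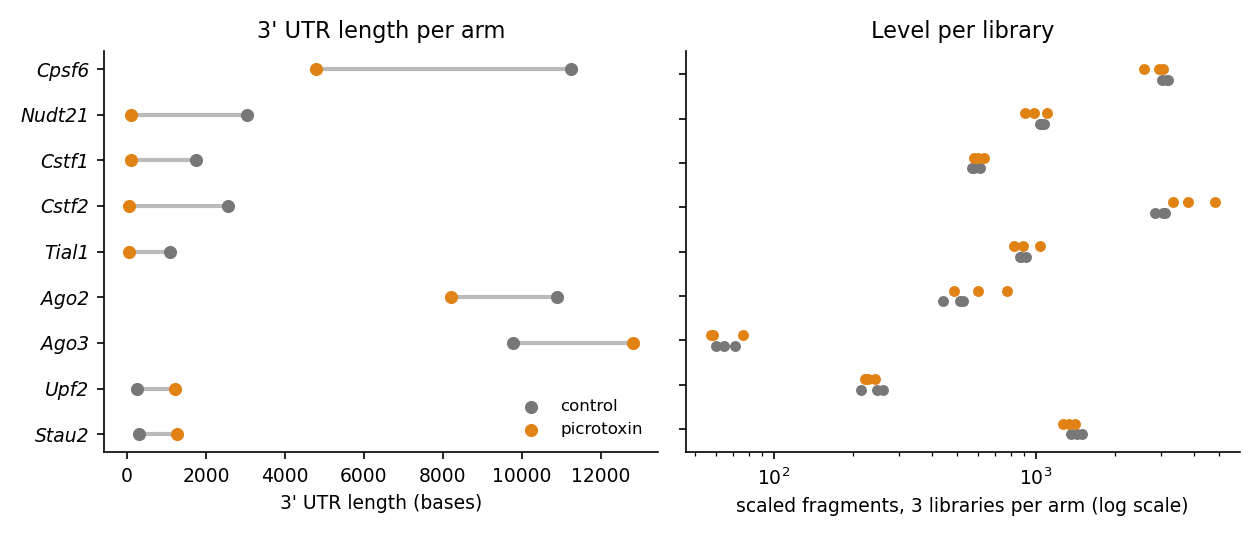
3' UTR length in bases (left) and scaled fragments per polyA library (right, log scale) of the 9 members that belong to the lists of 3' end processing, site choice and 3' UTR binding factors, with control in grey and picrotoxin in orange. Cpsf6, Nudt21, Cstf1, Cstf2, Tial1 and Ago2 are shorter and Ago3, Upf2 and Stau2 longer with picrotoxin; Cstf2 alone has 3 picrotoxin values above its 3 control values.

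Scaled fragments summed to between 12304776 and 12982866 per polyA library, and small RNA counts to between 7730222 and 10051499. All 7 neuronal markers had a control FPKM of 1 or more, while 3 of 4 microglial markers were listed at 0 in control cultures. The summed level of the 3 excitatory markers was 23884 to 25711 scaled fragments in control and 14728 to 19389 in picrotoxin libraries, and that of the 7 neuronal markers 84064 to 90289 and 71761 to 76296. The 3 inhibitory markers, by contrast, summed to 11822 to 18001 in control and 13977 to 23459 in picrotoxin libraries. Each picrotoxin library was above the control library of its number in this sum, as in Gad1 and Gad2 singly. Slc32a1 did not share the rise, with 1962, 1932 and 2847 scaled fragments in control and 1907, 2010 and 2818 in picrotoxin libraries. Fibroblast markers (3) summed to 1123 to 1951 and 1332 to 2095, astrocyte markers (5) to 1976 to 3429 and 1655 to 2925, and oligodendrocyte lineage markers (6) to 397 to 483 and 326 to 429.7. Although these ranges overlap, each picrotoxin library had a higher fibroblast sum than the control library of its number. The astrocyte and the oligodendrocyte lineage sums were lower in each such comparison. Microglial, endothelial and dividing-cell markers summed to under 100 in every library. In bulk cultures fewer cells of a type and less RNA per cell cannot be told apart, and the part of these shifts in the levels and lengths above was not tested.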

How the data were processed

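The authors deposited, per the file headers, 5' and 3' UTR lengths in bases for each gene model and arm, FPKM per arm with p-values and q-values for each gene, and a polyA signal for each gene and library, which held fragments divided by a size factor of the library and not scaled by gene length. Small RNA was deposited as counts per mature microRNA. Per the submitters' processing notes the tools included bedtools 2.22.1, STAR 2.3.1z12, Cuffnorm, Cuffdiff and Cufflinks 2.2.1, with no role stated; the genome build and the calling of ends are not given in the sources used here. Ribosome-depleted libraries and other cultures were not analysed here.

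Of 11254 length entries (10584 gene names), those with a 3' length missing in an arm (733), at 0 (598) or below 0 (12) were left out, and lengths were taken as medians per name. Where a name had several gene IDs in the expression table, matched without regard to case, the ID with the highest summed FPKM was used. Levels were tested with limma 3.58.1 (trend, robust; R 4.3.3) on log2(signal + 1), two-sided, with Benjamini-Hochberg adjustment over 12046 genes, after a test on simulated data; all level fold changes are on that scale. CPM were computed from the microRNA counts. The replicate numbers were taken to pair the libraries, since a control and a picrotoxin library with a common number deviated together from their arms' means (Pearson r across genes of 0.405 for number 3, 0.391 for 10 and 0.547 for 20), and limma was also fitted with that number as a block.

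Genes were named by rule: the 12 largest differences in each direction with an FPKM of 1 or more in both arms, up to 6 called members per direction of length and level, members of the 3 lists of RNA factors, up to 4 called or the 2 most abundant genes of each list, and the 3 genes on each side of the threshold. Members, lists and rule were chosen with earlier results of these data known.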

Additional observations from a re-analysis of the deposited data

How the results depend on the processing

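The counts of 154 longer and 228 shorter genes became 89 and 157 at 1000 bases or more, 83 and 125 with an FPKM of 5 or more in both arms, and 218 and 299 at 300 bases or more; means over entries gave 154 and 228, and 210 distinct pairs of lengths remained among the shorter genes when each was counted once. With the longest entry per arm Dclk1 differed by 0, Ntrk2 by 3 and Stau2 by 257 bases, and with the mean over entries Stau2 by 642.667.

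The replicate block moved the calls over all genes from 201 higher and 195 lower to 1162 and 1251, for longer genes from 4 and 1 to 24 and 7, for shorter genes from 0 and 8 to 12 and 33, for cleavage genes to 1 and 2, for site-choice genes to 10 lower, and for binding factors to 2 and 2. Without trend and robust, limma called 94 genes higher and 65 lower, 1 shorter gene higher and 5 lower, and 0 site-choice genes lower. With no filter 8 longer genes and 1 shorter gene were higher; at an FPKM of 5 or more 0 longer genes were higher and 4 shorter genes lower, and the medians were -0.0386 and -0.0219, so that the longer genes' median changed sign. Quantile scaling gave a median of 0.0139 for the longer genes and called 1 binding factor higher. With members at 1000 bases or more, 0 longer genes were called lower.

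Leaving out 1 library at a time gave 15 (without control 10) to 378 (without picrotoxin 20) genes higher and 14 to 516 lower. For longer genes it gave 0 to 8 higher and 0 to 2 lower, with medians of 0.00129 to 0.0556. For shorter genes it gave 0 to 3 higher and 1 to 17 lower, with medians of -0.0811 to -0.0512. Binding factors had 0 to 1 higher and 0 to 1 lower, cleavage genes 0 to 1 lower, and site-choice genes 0 to 4 lower. Without both libraries of number 20, an omission chosen after seeing the data, 487 genes were higher and 595 lower; longer genes gave 9 and 5 (median -0.0045), shorter genes 5 and 16 (median -0.0778), binding factors 1 and 1, cleavage genes 1 and 1, and site-choice genes 5 lower. The cause of these moves was not tested. The level was recomputed for 42 genes under every alternative that kept them, and the direction changed for 5, none of them called: Ahi1 (0.0121) and Gabra2 (0.00553) with quantile scaling, Nudt21 (0.00308) and Tial1 (-0.0194) without both libraries of number 20, and, when single libraries were left out, Enah (-0.138 to 0.0615), Gabra2 (-0.0849 to 0.0348) and Tial1 (-0.0453 to 0.116). The planned edgeR and DESeq2 fits were not run, because the deposited signal is not whole counts. The lengths carry no replicates, so no error can be given for them, and levels near 1 FPKM rest on few fragments.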
